A study of Mus musculus with 6 samples.

Results

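The genes of MHC class I antigen presentation were read in mouse colon tumours with and without a human IL8 transgene. They were taken as every probe set, a group of short probes that reads 1 transcript, whose only annotated gene was one of 10 named genes: the heavy chains H2-K1, H2-D1 and H2-T23, the light chain B2m, the peptide transporter and loading genes Tap1, Tap2 and Tapbp, the immunoproteasome genes Psmb8 and Psmb9, and the transactivator Nlrc5. Of 45101 probe sets on the array, 26 met this rule and stood for 9 of the 10 genes. H2-T23 had no probe set annotated to it alone and was not analysed here, and 5 probe sets that name a member beside another gene were left out. The samples were 3 colon tumours of IL8 transgenic mice and 3 colon tumours of control mice labelled wild type, all from animals of a mixed CBA/C57BL/6 background and labelled male, with 1 array per sample and 3 mice per group in the series' design. IL8 is a human chemokine that attracts neutrophils. The sources used here do not give the promoter of the transgene, the age of the animals, how the tumours arose or whether a sample holds 1 tumour or several. The tests below therefore weigh a difference against the spread of these 6 arrays and no more. The question put to the class I genes is whether their level in the tumour differs with the IL8 transgene.

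MHC class I molecules show short peptides from inside the cell to CD8 T cells. The peptides are cut by the proteasome, whose interferon-inducible form carries Psmb8 and Psmb9 in place of the constitutive subunits Psmb5 and Psmb6. They are pumped into the endoplasmic reticulum by the Tap1 and Tap2 transporter and fitted, with the help of the chaperone tapasin (Tapbp), into a heavy chain bound to B2m. Nlrc5 is the transactivator of class I genes and acts at their promoters through an upstream module of X and Y boxes, and interferon gamma raises the whole pathway. In the mouse H2-K1, H2-D1, Tap1, Tap2, Tapbp, Psmb8 and Psmb9 all lie in the MHC on chromosome 17, and B2m lies apart on chromosome 2.

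Upstream sequences of these genes are shown because the members are known to share control elements there. They come from RefSeq on GRCm38.p6 and are the bases just before the annotated gene start, read 5′ to 3′ on the gene's strand. Of the 10 genes, 8 had such a window. Capitals mark matches, on either strand, to GGGNTTCCC (a form of the kappaB site, known from the class I enhancer), AANNGAAA (the core bound by interferon regulatory factors), ATTGG (the Y box, or CCAAT box) or TGACG (the core of the X2 box). No marked matches overlap in these sequences. In H2-D1 the order is a pair of kappaB matches, the interferon regulatory factor match, TGACG, then a pair of ATTGG matches. The first kappaB match, the interferon regulatory factor match and the last ATTGG match are on the other strand.
H2-D1 (chr17:35262844-35263093, + strand): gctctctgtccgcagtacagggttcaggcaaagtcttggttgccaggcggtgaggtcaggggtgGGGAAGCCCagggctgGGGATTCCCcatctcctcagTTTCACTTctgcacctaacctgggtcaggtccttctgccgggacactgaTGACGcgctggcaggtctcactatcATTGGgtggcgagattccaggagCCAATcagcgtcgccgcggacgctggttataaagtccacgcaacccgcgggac
B2m (chr2:122147437-122147686, + strand): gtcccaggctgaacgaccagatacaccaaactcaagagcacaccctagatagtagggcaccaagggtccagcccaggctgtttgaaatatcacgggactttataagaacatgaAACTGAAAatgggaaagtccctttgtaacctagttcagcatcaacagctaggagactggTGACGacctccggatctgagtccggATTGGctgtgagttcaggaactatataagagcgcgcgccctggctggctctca
Tap1 and Psmb9, the 225 bases between their 2 gene starts on the Tap1 strand (chr17:34187331-34187555, + strand): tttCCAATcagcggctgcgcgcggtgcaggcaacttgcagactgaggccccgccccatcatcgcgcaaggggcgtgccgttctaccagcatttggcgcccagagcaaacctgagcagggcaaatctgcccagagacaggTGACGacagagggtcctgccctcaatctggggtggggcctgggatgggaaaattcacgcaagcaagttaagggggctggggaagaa

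The nearer kappaB match and the interferon regulatory factor core stood side by side in both heavy chain genes, as these 30-base stretches show.
H2-K1 (chr17:34000428-34000457, - strand): GGGATTCCCcatctccacagTTTCACTTct
H2-D1 (chr17:35262924-35262953, + strand): GGGATTCCCcatctcctcagTTTCACTTct
GGGNTTCCC was found in 2 of the 8 member windows, H2-K1 and H2-D1, and in 1.55% of all 32851 windows of 250 bases. AANNGAAA was found in 4 of 8 (H2-K1, H2-D1, H2-T23 and B2m) and in 21.3% of all windows, ATTGG in 7 of 8 and 33.8%, and TGACG in 5 of 8 (H2-K1, H2-D1, B2m, Tap1 and Psmb9) and 17.8%. The Tap1 and Psmb9 windows overlap, so the same ATTGG match and the same TGACG match are counted for both genes. All matches given here are descriptions of the letters in the windows and say nothing about binding in these tumours.

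The deposited values are log2 expression values. A probe set was tested where it reached 4 on at least 3 of the 6 arrays, which kept 19310 probe sets and 16 of the 26 member probe sets, at least 1 for each of the 9 genes. The other 10 lay between 1.59 and 4.09 on all arrays. The labels call all 6 animals male, but Xist, expressed from an inactive X, had values of at least 12.27 in all 3 transgenic tumours and of at most 2.64 in all 3 control tumours. Eif2s3y, a gene of the Y chromosome, had values of at most 2.71 in all 3 transgenic tumours and of at least 9.99 in all 3 control tumours. The transgenic arrays thus go against their male label, and genotype and sex cannot be told apart in any comparison here. Transgenic array 2 also carried squamous epithelium genes, with Krtdap at 12.31 against 2.62 or less on the other arrays. The colon epithelium markers matched the labelled tissue, with all 10 of 10 kept and Epcam at 13.95, 13.87 and 13.87 on the transgenic arrays and 13.93, 13.87 and 13.82 on the control arrays.

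No class I pathway gene passed the test between IL8 transgenic and control tumours. With limma, 0 of the 16 member probe sets had an adjusted p under 0.05, against 0.0570% of all probe sets (11 of 19310; 0.0207% higher and 0.0363% lower in transgenic tumours) and 0.0486% of all genes at their brightest probe set. The 11 became 3 once the named genes of the X and Y chromosomes were left out. The 0 of 16 is near these small shares and so says little about the members. Likewise 0 of 16 reached an unadjusted p under 0.05, against 5.50% of all. The limma adjusted p ran from 0.806 to 0.974. In 0 of 16 did the transgenic arrays lie wholly above or wholly below the control arrays, against 10.9% of all probe sets (6.31% of all with the transgenic arrays lower). At the brightest probe set of each gene all 9 genes had a lower mean in transgenic tumours, as did 53.8% of all 10289 genes, and the median difference over the 9 genes was -0.22 against -0.02 over all genes. The 9 genes share the same 6 arrays and varied together, so this count is not 9 independent results. In bulk tumour RNA, fewer cells of a type and less RNA per cell cannot be told apart.

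The class I heavy chains had high values at their brightest probe sets, with group differences whose intervals included 0. H2-K1, one of the classical heavy chains that present peptide to CD8 T cells, was at 12.02, 11.49 and 12.07 in transgenic tumours and at 11.77, 12.09 and 12.39 in control tumours at its brightest probe set. The groups overlapped, and the lowest of the 6 values was transgenic array 2. The means were 11.86 ± 0.33 in transgenic and 12.08 ± 0.31 in control tumours (SD, n = 3 each), a difference of -0.22 ± 0.24 (SE) with a 95% interval of -0.81 to 0.36 (limma adjusted p 0.848). Its other bright probe sets differed by -0.18 and -0.07. A further one, at 3.96 to 4.30 on all arrays and so near the filter level, differed by -0.19.

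H2-D1, the other classical heavy chain measured, was at 12.22, 11.87 and 12.05 in transgenic tumours and at 11.95, 12.13 and 12.31 in control tumours. The groups again overlapped, with transgenic array 2 lowest and control array 3 highest. The means were 12.05 ± 0.18 in transgenic and 12.13 ± 0.18 in control tumours (SD, n = 3 each), and the difference was -0.08 ± 0.17 (SE), with a 95% interval of -0.50 to 0.34 (limma adjusted p 0.924). The other 3 kept probe sets of H2-D1 differed by -0.08, 0.04 and -0.05. The one at 0.04 was the only 1 of the 16 with a higher mean in transgenic tumours.

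The labels do not give the H2 haplotype of each animal, and CBA and C57BL/6 carry different H2 alleles. Of the 8 kept heavy chain probe sets, 7 have identifiers ending in _x_at, which marks probes that can also bind other transcripts, so H2-K1, H2-D1 and further class I genes may share signal in them. The remaining one, for H2-D1, was at 6.51, 6.27 and 6.54 in transgenic tumours and at 5.89, 6.81 and 6.85 in control tumours, with control array 1 lowest. The 6-array range of the kept heavy chain probe sets was 0.34 to 0.97, so none of these was bright on some arrays and dark on others. Only 4 of the 9 H2-D1 probe sets were kept, and the others lay between 1.59 and 4.04 on all arrays. The part of haplotype in these values was not tested.

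B2m, the light chain that every class I molecule needs to reach the cell surface, had 2 probe sets with the same order of arrays at both ends. At the brighter one it was at 12.53, 11.91 and 12.67 in transgenic tumours and at 12.39, 12.61 and 12.94 in control tumours. At the other it was at 12.33, 11.45 and 12.43 in transgenic tumours and at 12.03, 12.41 and 12.71 in control tumours. Both had transgenic array 2 lowest and control array 3 highest, and the remaining transgenic values lay among the controls. The differences were -0.27 ± 0.26 and -0.31 ± 0.32 (SE), with 95% intervals of -0.90 to 0.35 and -1.09 to 0.46 (limma adjusted p 0.830 and 0.838). Without transgenic array 2 they were -0.04 and -0.0033. That array is the one with squamous genes, whose part in the B2m value was not tested.

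**Figure D1:**
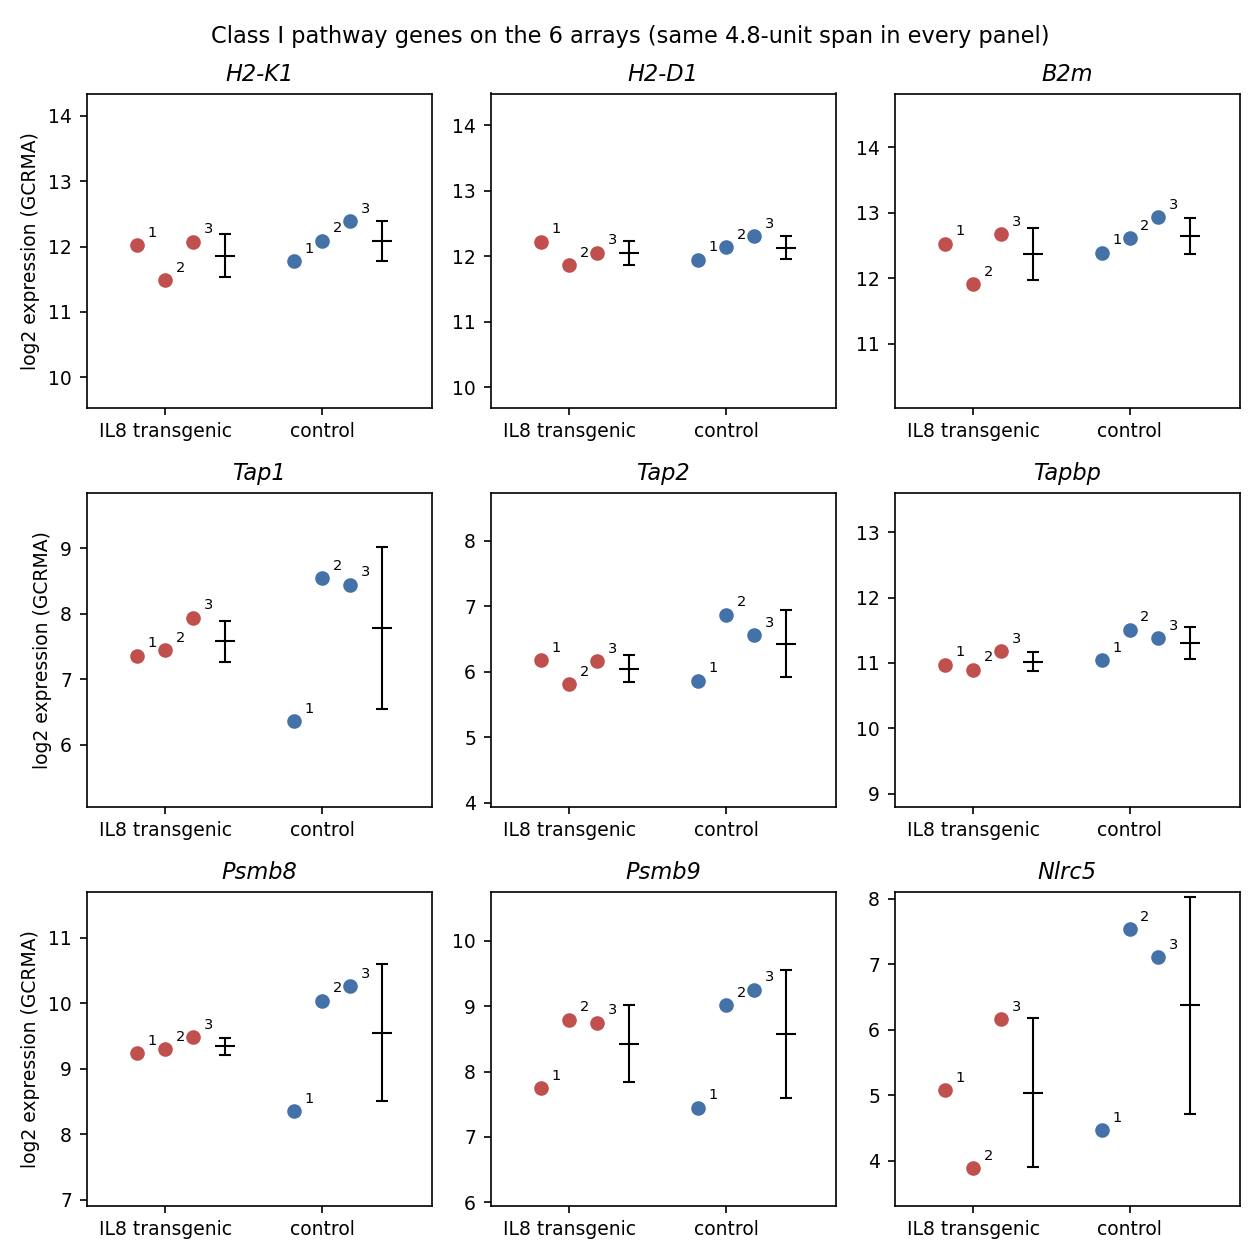
Log2 expression of the 9 measured class I pathway genes at their brightest tested probe set, with IL8 transgenic arrays (red, left) and control arrays (blue, right) as points numbered by replicate and the mean with SD as a black bar. Every panel spans the same number of log2 units, so the tight heavy chains (H2-D1 between 11.87 and 12.31) can be set beside the wide control spread of Tap1 (6.36 to 8.54) and Nlrc5 (4.47 to 7.54).

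The peptide transporter genes spread more widely, and mainly within the control group. Tap1, the first subunit of the transporter, was at 7.36, 7.45 and 7.94 in transgenic tumours and at 6.36, 8.54 and 8.44 in control tumours. All 3 transgenic values fell inside the control range, between control array 1 and the other controls. The means were 7.58 ± 0.31 in transgenic and 7.78 ± 1.23 in control tumours (SD, n = 3 each), a difference of -0.20 ± 0.60 (SE) with a 95% interval of -1.65 to 1.25 (limma adjusted p 0.947). The other 3 probe sets of Tap1 were not kept.

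Tap2, the second subunit of the transporter, was at 6.17, 5.81 and 6.16 in transgenic tumours and at 5.86, 6.87 and 6.56 in control tumours. Transgenic array 2 and control array 1 were the lowest of the 6. The difference was -0.38 ± 0.29 (SE), with a 95% interval of -1.07 to 0.31 (limma adjusted p 0.810). Tapbp, the chaperone that holds the empty heavy chain at the transporter, was at 10.97, 10.90 and 11.18 in transgenic tumours and at 11.04, 11.51 and 11.38 in control tumours. Only transgenic array 3 reached into the control range, and the difference was -0.29 ± 0.18 (SE), with a 95% interval of -0.73 to 0.15 (limma adjusted p 0.806).

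The immunoproteasome genes had the same shape as Tap1. Psmb8, which encodes the beta5i subunit, was at 9.24, 9.30 and 9.48 in transgenic tumours and at 8.36, 10.04 and 10.26 in control tumours. The transgenic values lay close together inside the control range, above control array 1 and below the other controls. The means were 9.34 ± 0.13 in transgenic and 9.55 ± 1.04 in control tumours (SD, n = 3 each), a difference of -0.21 ± 0.50 (SE) with a 95% interval of -1.42 to 1.00 (limma adjusted p 0.933).

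Psmb9, which encodes the beta1i subunit and shares the upstream stretch shown above with Tap1, was at 7.75, 8.79 and 8.75 in transgenic tumours and at 7.45, 9.01 and 9.25 in control tumours. Array 1 was the lowest of its group in both groups. The difference was -0.14 ± 0.54 (SE), with a 95% interval of -1.45 to 1.17 (limma adjusted p 0.959). Psmb5, Psmb6 and Psmb7, the constitutive subunits that the inducible ones replace, spread less. They differed by -0.23 ± 0.16, -0.09 ± 0.15 and -0.09 ± 0.16 (SE), and 0 of 3 passed.

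Nlrc5, the transactivator, had the largest group difference of the 9 genes and the largest spread. It was at 5.07, 3.89 and 6.16 in transgenic tumours and at 4.47, 7.54 and 7.11 in control tumours. All 3 transgenic values lay below control arrays 2 and 3, and 2 of the 3 lay above control array 1. The means were 5.04 ± 1.14 in transgenic and 6.37 ± 1.66 in control tumours (SD, n = 3 each), a difference of -1.33 ± 0.94 (SE) with a 95% interval of -3.59 to 0.93 (limma adjusted p 0.806). Transgenic array 2 was under the filter level of 4. The 6-array range of Nlrc5 was 3.65, against 0.44 for H2-D1 and 1.02 for B2m at their brightest probe sets.

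**Figure D2:**
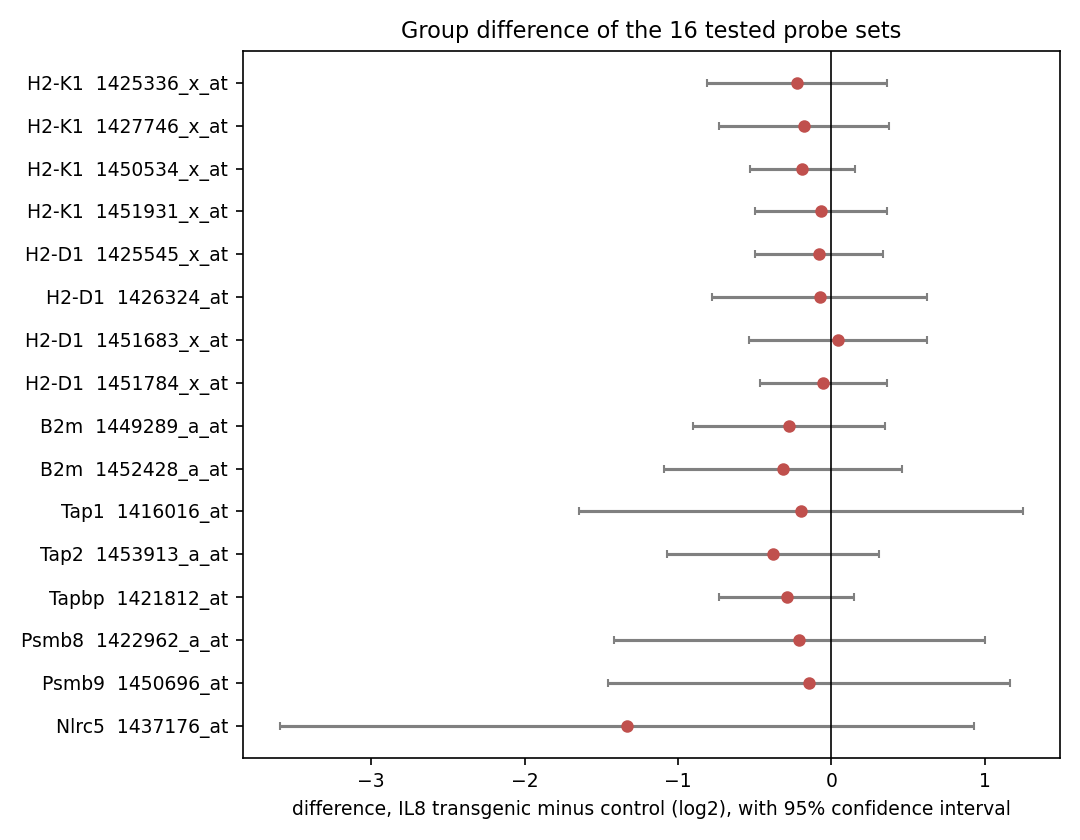
Difference in log2 expression, IL8 transgenic minus control, for the 16 tested probe sets of the pathway (points), with the 95% confidence interval of the limma fit (bars) and a line at 0. All 16 intervals include 0, from the narrowest, of the H2-K1 probe set near the filter level (-0.53 to 0.16), to the widest, of Nlrc5 (-3.59 to 0.93).

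Control array 1 stood lower than the other controls, most of all for Nlrc5, Tap1, Psmb8 and Psmb9. It was the lowest of the 3 controls for all 9 genes, as it was for 41.8% of all genes. Relative to the mean of the other controls it differed by -2.86 for Nlrc5, -2.13 for Tap1, -1.80 for Psmb8, -1.68 for Psmb9 and -0.85 for Tap2. For Tapbp, B2m, H2-K1 and H2-D1 the same difference was -0.40, -0.38, -0.47 and -0.27, and the median over all genes was -0.05. In all 9 genes the range of the control arrays exceeded the group difference, as it did in 73.0% of all genes.

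Leaving out 1 array moved these group differences widely. Without control array 1 the median difference over the 9 genes was -0.66 in place of -0.22. Tap1 then differed by -0.91, Psmb8 by -0.81, Psmb9 by -0.70 and Nlrc5 by -2.28, and the limma adjusted p was 0.821 for each. Without control array 3 the differences of Tap1, Psmb8 and Psmb9 were 0.13, 0.14 and 0.20. Nlrc5 was at -0.75 without control array 2 and at -0.76 without transgenic array 2. In no such fit did a member probe set pass.

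**Figure D3:**
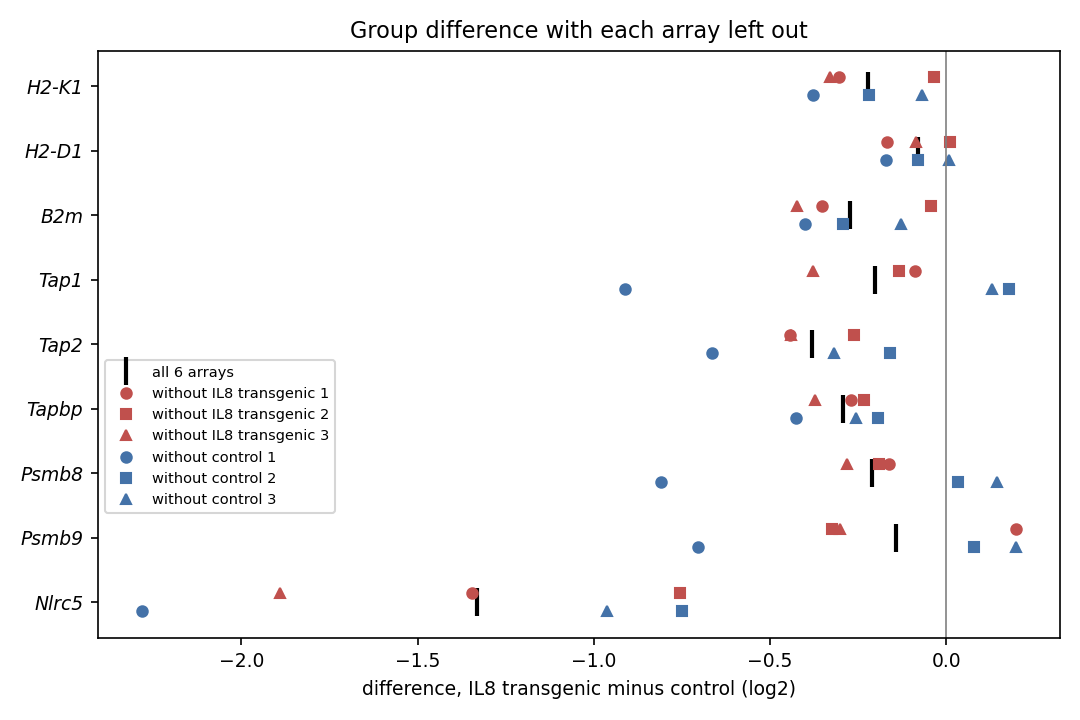
Difference in log2 expression, IL8 transgenic minus control, of the 9 genes with all 6 arrays (black bars) and with each array left out (red symbols for transgenic, blue for control arrays). Leaving out control array 1 gave -0.91 for Tap1 and -2.28 for Nlrc5, while the differences of Tap1, Psmb8 and Psmb9 crossed 0 when control array 2 or 3 was left out.

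The genes that surround the pathway are given next, from lists of known members. Of 30 other class I and class I-like chains 6 were tested, with 3 higher, 3 lower and 0 passing (median -0.02). H2-Q2, a class I gene of the Q region, was at 6.05, 6.88 and 5.96 in transgenic tumours and at 5.54, 4.94 and 5.26 in control tumours. Its difference was 1.05 ± 0.30 (SE) and did not pass (limma adjusted p 0.806). Cd1d1, which presents lipids to NKT cells, was at 8.01, 7.17 and 7.99 in transgenic tumours and at 8.26, 8.08 and 8.60 in control tumours, a difference of -0.59. H2-Q2 and Cd1d1 were the 2 of the 6 genes whose groups did not overlap, in opposite directions, against 11.5% of all genes. The protein C receptor gene Procr differed by -0.72 and Fcgrt, the heavy chain of the neonatal Fc receptor, by 0.26.

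Of 19 other processing and loading genes 17 were tested, with 2 higher, 15 lower and 0 passing (median -0.10). The aminopeptidase Lap3 differed by -0.53 ± 0.24, the glucosidase subunit Ganab by -0.36 ± 0.22 and the disulfide isomerase Pdia3 of the loading complex by -0.21 ± 0.15 (SE). Erap1, which trims peptides in the endoplasmic reticulum, differed by 0.21 ± 0.18. The third inducible subunit Psmb10 differed by -0.03, the proteasome activator Psme1 by -0.18, and the lectin chaperones Calr and Canx by -0.06 and -0.09 at their brightest probe sets. Psme2 had no probe set annotated to it alone and was not analysed here.

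Of 22 genes of the interferon gamma and Nlrc5 axis 17 were tested, with 3 higher, 14 lower and 0 passing (median -0.14). Irf1, the interferon regulatory factor that acts on class I promoters, was at 9.29, 9.91 and 9.87 in transgenic tumours and at 10.12, 10.26 and 10.07 in control tumours. It differed by -0.46 ± 0.21 (SE) and its control values were close together, with control array 1 at -0.05 from the mean of the others. Irf2, a repressor relative of Irf1, was at 7.99, 8.98 and 8.03 in transgenic tumours and at 7.74, 7.81 and 7.64 in control tumours, a difference of 0.61 ± 0.29 (SE). The groups did not overlap in 3 of the 17 genes, lower in transgenic tumours for Irf1 and the kinase Jak1 (-0.22 ± 0.14) and higher for Irf2, against 11.5% of all genes in either direction. Irf9 differed by -0.60 ± 0.33, the CCAAT box factor subunit Nfyb by -0.32 ± 0.20 and Rfx5, a subunit of the factor that binds the X box, by -0.66 ± 0.42. The limma adjusted p was 0.806 for each of these 6 genes. For Irf9, control array 1 was at -0.69 from the mean of the other controls. That array was the lowest control in 8 of the 17 genes, with a median of -0.05, and in 41.8% of all genes. Ifng, Ciita and Socs1 lay under 4 on all 6 arrays.

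The interferon-induced GTPases, which act against intracellular microbes, had lower means in transgenic tumours in all 10 of 10 tested genes (median -0.93), and 0 passed. Gbp6 differed by -2.77 ± 1.01, Irgm2 by -1.35 ± 0.50, Gbp8 by -1.64 ± 0.66 and Iigp1 by -1.83 ± 0.87 (SE), all at a limma adjusted p of 0.806. Control array 1 was the lowest control in all 10. The MHC class II genes serve presentation to CD4 T cells. They had lower means in 6 of 6 tested genes (median -1.53, from -1.96 to -0.0029), and 0 passed. Cd74, H2-Aa, H2-Eb1 and H2-Ab1 did so without overlap between the groups, at differences of -1.65, -1.42, -1.96 and -1.68. Of all genes, 6.75% had no overlap with the transgenic arrays lower. Whether class I and class II differed from each other in their response was not tested.

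The gene groups differed in which array was lowest. Psmb8 and Psmb9 together stood at -0.48, 0.07 and 0.14 from the 6-array mean on the transgenic arrays and at -1.07, 0.55 and 0.78 on the control arrays. The GTPases stood at -1.15, -0.79 and 0.26 on the transgenic arrays and at -0.40, 1.27 and 0.80 on the control arrays. The class II genes stood at -1.61, -0.58 and 0.20 on the transgenic arrays and at 0.24, 0.83 and 0.91 on the control arrays, so that control array 1 stood above their 6-array mean. Among the controls alone, control array 1 was still the lowest in 5 of 6 class II genes, with a median of -0.70 from the other controls, and in 5 of 6 pan-leukocyte and 7 of 8 macrophage markers. The heavy chains stood between -0.35 and 0.32 on all 6 arrays.

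**Figure D4:**
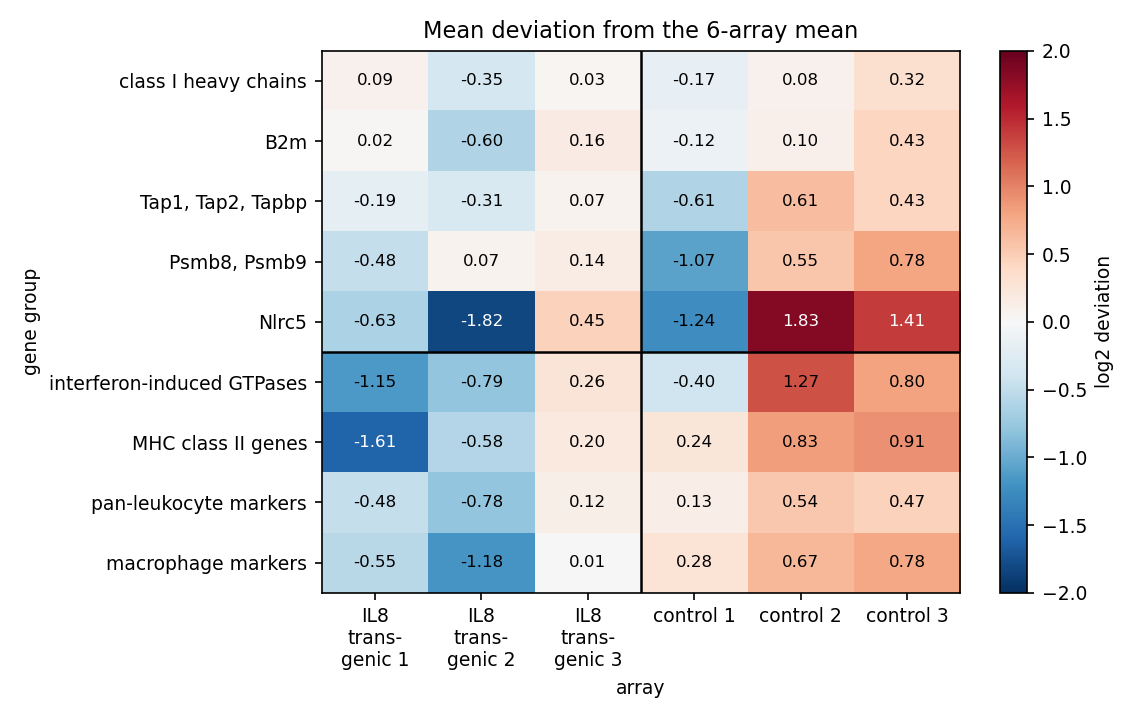
Mean deviation of each gene group from its own 6-array mean (log2, printed and coloured, red above and blue below), with class I members above the horizontal line and comparison lists below it, and IL8 transgenic arrays left of the vertical line and control arrays right of it. Psmb8 and Psmb9 were lowest on control array 1 (-1.07) and class II genes on transgenic array 1 (-1.61).

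Markers of other cell types had group means that lay apart in either direction, but none of them passed. They were not always low on the same arrays as the class I genes. All 6 of 6 pan-leukocyte markers were tested and had lower means in transgenic tumours (median -0.81, 0 passing), and their summed level, the log2 of the sum of the linear values, was 11.11 to 11.98 in transgenic and 11.99 to 12.36 in control tumours. All 8 of 8 macrophage markers were tested and 7 had lower means (median -1.04, 0 passing), with a summed level of 11.81 to 13.04 in transgenic and 13.20 to 13.52 in control tumours. Of 17 T and NK cell markers, 2 were tested (Gzma and Gzmb), and 10 lay under 4 on all arrays, among them Cd3e, Cd4, Cd8b1 and Prf1. Over the 14 with a probe set annotated to them alone, tested or not, the summed level was 6.66 to 7.05 in transgenic tumours. It was 7.01 to 7.59 in control tumours, and both sums include the values under 4. Of 7 dendritic cell markers, 1 was tested (Itgax) and 5 lay under 4 on all arrays. The B and plasma cell markers had higher means in 3 of 3 tested genes (median 0.25) and the smooth muscle markers in 4 of 4 (median 0.89). The smooth muscle markers stood at -1.50, 2.22 and 1.09 from their 6-array mean on the transgenic arrays. On the control arrays they stood at -0.12, -0.63 and -1.07, so transgenic array 1 was the lowest of the 6. The endothelial markers had lower means in 4 of 5 tested genes and a higher one in 1 (median -0.27). The fibroblast markers had lower means in 7 of 7 (median -0.64), with 0 passing in each list. Groups did not overlap, with transgenic arrays lower, in 5 of 8 macrophage, 3 of 6 pan-leukocyte and 3 of 7 fibroblast markers. This also held for 1 of 5 endothelial markers and for Itgax. The same held for 0 of the tested T and NK cell, B and plasma cell, smooth muscle and colon epithelium markers, and for 6.75% of all genes. On control array 1, where Psmb8 and Psmb9 stood at -1.07, the pan-leukocyte markers stood at 0.13 and the macrophage markers at 0.28 from their 6-array means. Relative to the mean of the other controls, that array was lower in both lists. The median was -0.28 for the pan-leukocyte and -0.36 for the macrophage markers, against -1.74 for Psmb8 and Psmb9. The summed level of the colon epithelium markers was 16.18 to 16.28 in transgenic and 15.95 to 16.23 in control tumours. The part of these cells in the class I values was not tested.

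Outside all of these lists, 5 genes followed the mean profile of the 9 members most closely over the 6 arrays, out of 6389 genes with enough range over the arrays to be compared. They were Nfkbib, an inhibitor of NF-kappaB, Serpinb6b, a serine protease inhibitor, Plek, a leukocyte and platelet signalling protein, Mbd3, a subunit of a chromatin remodelling complex, and Fam216a. Their root mean square difference from the profile was 0.16, 0.17, 0.17, 0.18 and 0.18 log2 units. The profile itself stood at -0.22, -0.43 and 0.13 on the transgenic arrays and at -0.63, 0.56 and 0.59 on the control arrays. This is a description of likeness over 6 arrays.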

How the data were processed

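Total RNA of 6 mouse colon tumours was hybridised to 6 expression arrays, 3 per group. The deposited log2 values were made by the authors with GCRMA, a background-correcting summary of Affymetrix probes, as the submitters' processing notes name it. For its version and for a genome build: not given in the sources used here. That the unit is log2 follows from the values, with array medians of 3.31 to 3.36. Genes were named from the platform annotation. Probe sets at 4 or more on at least 3 arrays entered lmFit and eBayes of limma 3.58.1 (R 4.3.3), tested on simulated data first, as transgenic minus control. P-values were adjusted by Benjamini-Hochberg over all 19310, and 64 control probe sets were left out. Lists were described with 1 probe set per gene, the brightest. All members were named, and from each list up to 4 genes with the smallest unadjusted p plus fixed regulators and chaperones. Jak1 and single cell type markers were named after values were seen. The members and lists were chosen with earlier results of these data known. Alternatives changed the filter, normalization, centring, prior variance, array weights, low values, X- and Y-linked genes, probe set choice, threshold, replicate block and each array in turn. Replicate numbers did not pair the arrays: deviations of same-numbered arrays correlated at -0.27, -0.28 and -0.05. The 3 arrays per group limit the precision.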

Additional observations from a re-analysis of the deposited data

How the results depend on the processing

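No member probe set passed in any alternative: of 239 member values recomputed, 0 had a limma adjusted p under 0.05, and the count of members passing stayed at 0 throughout, also with an adjusted p threshold of 0.1. The count over all probe sets was 11, and 3 once the named genes of the X and Y chromosomes were left out. It was 8 to 11 with each array left out, 8 with the replicate number as a block and 12 with array weights. The median difference of the 9 genes was -0.22, and -0.09 with array weights. With arrays left out it ran from -0.66 (without control array 1) to -0.0695 (without control array 3). The replicate block left it at -0.22, as it must: each replicate number occurs once per group, so the block can change only the p-values. Of the 16 member probe sets, 7 kept their direction in every alternative and 9 did not. With array weights Psmb9 turned to 0.041. With arrays left out, differences ran from -0.91 to 0.18 for Tap1, from -0.81 to 0.14 for Psmb8 and from -0.70 to 0.20 for Psmb9. For H2-D1 they ran from -0.17 to 0.0092, from -0.39 to 0.090, from -0.098 to 0.28 and from -0.15 to 0.052 at its 4 probe sets. For H2-K1 they ran from -0.35 to 0.0085 and from -0.18 to 0.048 at the 2 that turned. The cause of these turns was not tested. Having 3 arrays per group, and signals of Nlrc5 near the filter level, limits what these data can show. The median of all genes was -0.02, and -0.016 after quantile normalization and -0.013 with arrays centred on their median. The replicate block changed no call of a member.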
